A study of Homo sapiens with 12 samples.

Results

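Genes that androgens are known to induce in prostate cells, kallikreins left aside, were followed in 2 prostate cancer cell lines treated with dexamethasone. The set held 35 named genes, among them surface proteins (SLC45A3, the STEAP family, FOLH1), signalling proteins (CAMKK2, PMEPA1, LIFR), transcription regulators (ELL2, MAF) and metabolic enzymes (HPGD, GNMT). Of these, 32 had a row with that gene symbol on the array, out of 17687 genes in all. SORD, ACSL3 and PLPP1 were not analysed here. Each of the 32 genes had 1 row. The genes were taken by name, from a list chosen with earlier results of these data known.

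The lines, LNCaPabl-Abi and LNCaPabl-Enza, carry the name of LNCaP, an established line of human prostate cancer cells. What Abi and Enza abbreviate, and how the sublines were made, is not written in the labels. Each line was given 100 nM dexamethasone, a synthetic glucocorticoid, or its vehicle DMSO for 24 h. Total RNA was measured on 12 Affymetrix arrays, 3 each for Abi_Dex (LNCaPabl-Abi with dexamethasone), Abi_Ctrl (LNCaPabl-Abi with DMSO), Enza_Dex (LNCaPabl-Enza with dexamethasone) and Enza_Ctrl (LNCaPabl-Enza with DMSO). The growth protocol describes LNCaP cells in medium with fetal calf serum and lists no added androgen or receptor antagonist. Each line is a single cell line, so a difference between the lines compares 2 lines and not 2 classes of tumour.

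Androgens act through a steroid receptor, a transcription factor that binds DNA once its hormone is bound to it, recruits coactivators and raises the transcription of its target genes in luminal prostate cells. Dexamethasone acts through the glucocorticoid receptor, encoded by NR3C1. It belongs to the same steroid receptor family and recognises nearly the same DNA element, and it is known to switch on part of the androgen-induced genes in prostate cancer cells. The comparisons therefore ask which androgen targets dexamethasone raised in each line and which it did not.

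All values below are the deposited log2 values, and every difference is on that log2 scale. A gene was called higher or lower at an adjusted p under 0.05 (limma, Benjamini-Hochberg over all 17687 genes). One array, Enza_Ctrl replicate 2, resembled the others least, with a median Pearson r of 0.855 against 0.986 to 0.990 for the other 11. Its background control rows averaged 5.50, and those of the other arrays at most 4.60. Among the 32 genes it gave the highest of the 12 values in 8 and the lowest in 17, and over all genes it was the highest or lowest in 75.8%. Counts are therefore given with 12 arrays and with 11 arrays, that array left out, as are the differences it enters. Of the luminal epithelial markers, 6 of 7 were measured and all 6 exceeded 6.92, the 95th percentile of 612 negative-control rows. No measured marker did so among 3 basal, 5 neuroendocrine and 4 endothelial genes, while 1 of 5 fibroblast markers (COL1A2) and 1 of 6 immune markers (CD68) did. Averaged over their measured genes, the luminal markers lay at 12.51 to 12.81 in Abi_Dex against 11.86 to 12.21 in Abi_Ctrl. They lay at 12.24 to 12.51 in Enza_Dex against 12.07 and 12.31 in the Enza_Ctrl arrays other than replicate 2. KLK3, an androgen target itself, is one of these markers. Loss of cells of a type and less RNA per cell cannot be told apart in such bulk samples. Among the 32 genes, 19 exceeded the same negative-control percentile in their mean over all arrays. The 13 that did not were SLC45A3, STEAP4, TRPM8, CHRNA2, PMEPA1, PTGER4, EAF2, MAF, HPGD, ALDH1A3, GNMT, MSMB and ANKRD37, and their differences are between dim signals.

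Dexamethasone raised none of the 32 genes past the threshold in LNCaPabl-Abi. The genes leaned upward, but no gene passed the test and the lean itself was not tested. Of 32 genes, 21 were higher in Abi_Dex than in Abi_Ctrl, against 50.4% of all genes. Their median difference was 0.17, against 0.00 over all genes. The differences ran from 0.91 for CAMKK2 down to -0.47 for FOLH1. With Abi_Ctrl replicate 1 left out 17 of 32 were higher, and with Abi_Ctrl replicate 2 left out 23 were. With limma 0 of 32 genes were called with 12 arrays, where 0.0283% of all genes were, and 0 of 32 with 11 arrays, where 0.141% were. Their smallest adjusted p was 1.00 with 12 arrays and 0.579 with 11, that of GNMT. At an unadjusted p under 0.05 the count was 2 with 12 arrays (SLC45A3 and GNMT; 1.36% of all genes) and 5 with 11 arrays (CAMKK2, PMEPA1 and PTGER4 besides; 7.09% of all genes). All 3 Abi_Dex arrays lay above all 3 Abi_Ctrl arrays in 4 genes, SLC45A3, STEAP1, ELL2 and GNMT, where 6.26% of all genes showed that order. All 3 lay below in TRPM8 and NCAPD3, where 6.01% of all genes did.

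The intervals show how large a rise these arrays could have missed. With 11 arrays the 95% confidence interval of the Abi difference stayed below 1, which is a 2-fold rise, in 28 of 32 genes, and it did so in 95.6% of all genes. The 4 exceptions were CAMKK2, GNMT, SLC45A3 and ADAMTS1. With 12 arrays, where Enza_Ctrl replicate 2 enlarges the shared estimate of the spread, the interval stayed below 1 in 18 of 32 genes and in 67.2% of all genes. A difference in LNCaPabl-Abi is the same number with 12 and with 11 arrays, since the array left out belongs to the other line.

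In LNCaPabl-Enza dexamethasone likewise raised none of the 32 genes past the threshold. With 12 arrays 23 of 32 genes were higher in Enza_Dex than in Enza_Ctrl, against 54.0% of all genes, with a median of 0.24. With 11 arrays 22 of 32 were higher, against 51.0% of all genes, and the median was 0.08. With limma 0 of 32 genes were called with either set of arrays, as were 0.0% of all genes. The smallest adjusted p was 0.523 with 12 arrays and 1.00 with 11. At an unadjusted p under 0.05 there were 3 genes with 12 arrays (LIFR, C1orf116 and ANKRD37; 3.96% of all genes) and 2 with 11 (HPGD and ANKRD37; 3.0% of all genes). With 11 arrays all 3 Enza_Dex arrays lay above both Enza_Ctrl arrays in HPGD, MAF, PMEPA1 and C1orf116, where 7.93% of all genes did, and below both in STEAP4 and ANKRD37, where 7.93% of all genes did. With 12 arrays C1orf116 was the one gene with every array higher (3.96% of all genes), and STEAP4 and ANKRD37 again had every array lower (4.77% of all genes). The 95% interval stayed below 1 in 28 of 32 genes with 11 arrays (95.6% of all genes), CAMKK2, LIFR, HPGD and ADAMTS1 being the exceptions, and in 19 of 32 with 12 arrays (67.7% of all genes).

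**Figure D1:**
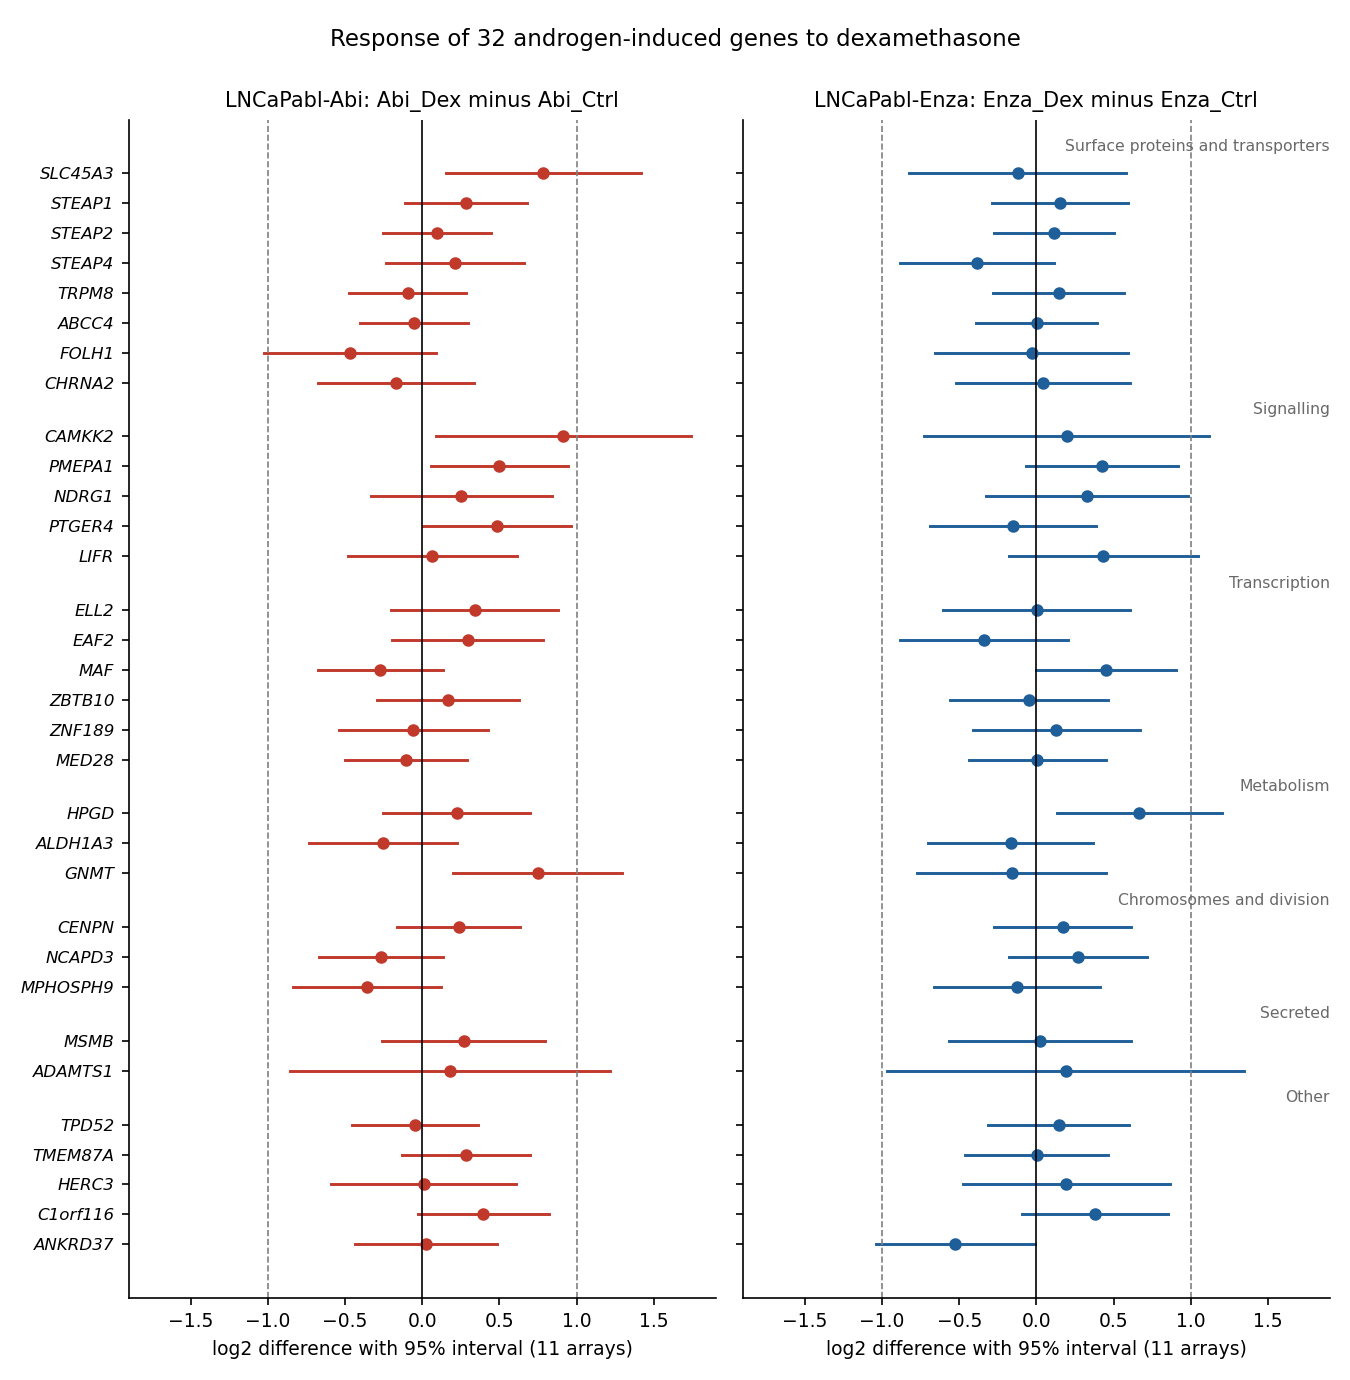
Difference in log2 value between dexamethasone and DMSO arrays for each of the 32 genes, in LNCaPabl-Abi on the left and LNCaPabl-Enza on the right, fitted with 11 arrays. Points are differences, bars are 95% confidence intervals and the dashed line marks 1, a 2-fold rise. In each line 28 of 32 intervals end left of that line, and CAMKK2 has the highest point in LNCaPabl-Abi at 0.91.

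**Figure D2:**
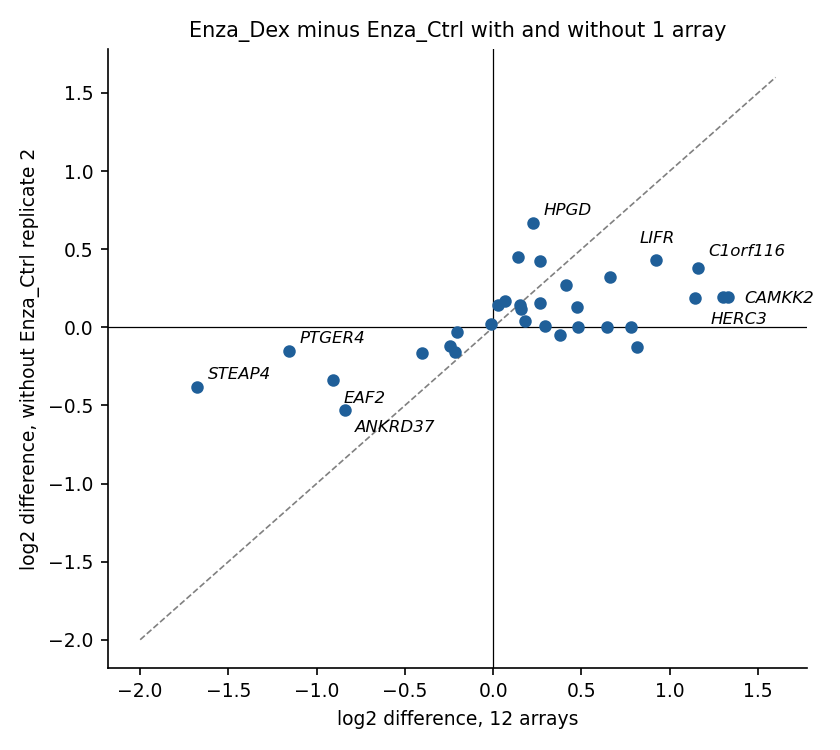
Difference in log2 value between Enza_Dex and Enza_Ctrl for the 32 genes, with 12 arrays on the horizontal axis and with 11 arrays (Enza_Ctrl replicate 2 left out) on the vertical axis; the dashed line marks equal values. STEAP4 lies at -1.68 with 12 arrays and at -0.38 with 11, and CAMKK2 at 1.33 and 0.20.

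Surface proteins and transporters were the largest role group, with 8 genes. SLC45A3, which encodes prostein, a membrane transporter abundant in prostate epithelium, read 5.55, 6.07 and 6.21 in Abi_Dex against 4.89, 5.42 and 5.17 in Abi_Ctrl. All dexamethasone arrays of LNCaPabl-Abi were thus above all DMSO arrays, by 0.78 ± 0.30 (SE, 11 arrays; 1.72-fold, adjusted p = 0.619) or 0.78 ± 0.35 (12 arrays, adjusted p = 1.00). In LNCaPabl-Enza it read 5.77, 5.87 and 6.47 in Enza_Dex against 6.77, 6.53 and 5.55 in Enza_Ctrl. The groups overlapped there, with a difference of -0.24 ± 0.35 (12 arrays) or -0.12 ± 0.33 (11 arrays).

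The 3 STEAP genes encode six-transmembrane proteins of prostate epithelium, STEAP2 and STEAP4 being metalloreductases. STEAP1 read 15.26, 15.03 and 15.41 in Abi_Dex against 14.88, 14.98 and 15.00 in Abi_Ctrl. The groups did not overlap, but the difference was 0.28 ± 0.18 (11 arrays) or 0.28 ± 0.22 (12 arrays), with an interval of -0.11 to 0.68 with 11 arrays. In LNCaPabl-Enza, STEAP1 read 14.45, 14.24 and 14.78 in Enza_Dex against 14.41, 14.00 and 14.26 in Enza_Ctrl, which overlap. The Enza difference of STEAP1 was 0.15 ± 0.21 with 11 arrays and 0.27 ± 0.22 with 12. STEAP2, the brightest of the 32 genes, differed by 0.10 ± 0.16 in LNCaPabl-Abi (11 arrays), and in LNCaPabl-Enza by 0.11 ± 0.18 with 11 arrays and 0.16 ± 0.19 with 12. STEAP4 was dim, at 3.95, 3.67 and 3.94 in Enza_Dex against 4.21, 8.12 and 4.27 in Enza_Ctrl. Every Enza_Dex array was below every Enza_Ctrl array, yet 1 Enza_Ctrl array set the size: the difference was -1.68 ± 0.81 with it and -0.38 ± 0.23 without it.

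FOLH1, the prostate-specific membrane antigen, is a carboxypeptidase that androgens are also known to lower in LNCaP cells. It read 14.79, 14.99 and 15.70 in Abi_Dex against 15.23, 15.52 and 16.14 in Abi_Ctrl, a difference of -0.47 ± 0.26 (11 arrays) with overlapping groups. Between same-numbered arrays of LNCaPabl-Abi, FOLH1 differed by -0.44, -0.54 and -0.43, though the labels state no pairing. In LNCaPabl-Enza it differed by -0.03 ± 0.29 (11 arrays) or -0.21 ± 0.32 (12 arrays). TRPM8, a cold-sensing ion channel, lay in a narrow dim band of 3.81 to 3.87 in Abi_Dex against 3.89 to 4.01 in Abi_Ctrl, without overlap, with a difference of -0.09 ± 0.18 (11 arrays). ABCC4, an efflux pump for cyclic nucleotides and drugs, and CHRNA2, a nicotinic receptor subunit, differed by -0.05 ± 0.16 and -0.17 ± 0.24 in LNCaPabl-Abi (11 arrays). In LNCaPabl-Enza, ABCC4 differed by 0.65 ± 0.43 with 12 arrays and 0.00 ± 0.18 with 11, and CHRNA2 by 0.18 ± 0.28 and 0.04 ± 0.26.

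All 5 signalling genes were higher in Abi_Dex than in Abi_Ctrl, against 50.4% of all genes. Their median difference was 0.48, and none passed the test. In the alternative fits listed below, the differences of NDRG1 and LIFR fell as low as -0.14 and -0.15. Those of CAMKK2, PMEPA1 and PTGER4 stayed positive. CAMKK2, the kinase kinase that activates AMPK and a known androgen target, was bright and had the largest difference of the 32 genes, and its array values are given although its groups overlapped. It read 10.76, 10.69 and 11.83 in Abi_Dex against 9.91, 9.42 and 11.21 in Abi_Ctrl. Replicate 3 was the highest in both groups, so that Abi_Ctrl replicate 3 exceeded 2 of the Abi_Dex arrays. Same-numbered arrays differed by 0.85, 1.27 and 0.62, though the labels state no pairing. The difference was 0.91 ± 0.39 (11 arrays; 1.89-fold, adjusted p = 0.681) or 0.91 ± 0.81 (12 arrays). In LNCaPabl-Enza, CAMKK2 read 10.81, 11.18 and 11.46 in Enza_Dex against 10.76, 7.56 and 11.15 in Enza_Ctrl. The difference of 1.33 ± 0.81 with 12 arrays shrank to 0.20 ± 0.43 with 11, so it rested on 1 array.

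PMEPA1 encodes a membrane protein that dampens TGF-beta signalling and binds NEDD4-type ubiquitin ligases. It was dim and read 4.69, 4.58 and 4.86 in Abi_Dex against 3.96, 4.65 and 4.02 in Abi_Ctrl. It read 4.55, 4.25 and 4.70 in Enza_Dex against 4.05, 4.55 and 4.10 in Enza_Ctrl. In each line the replicate 2 array of the DMSO group was the one that reached into the dexamethasone range. PMEPA1 differed by 0.50 ± 0.21 in LNCaPabl-Abi (11 arrays). For LNCaPabl-Enza the value was 0.42 ± 0.23 with 11 arrays and 0.27 ± 0.25 with 12.

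PTGER4, the EP4 receptor for prostaglandin E2, read 4.29, 4.21 and 4.23 in Abi_Dex against 3.36, 3.63 and 4.29 in Abi_Ctrl, a difference of 0.48 ± 0.23 (11 arrays). In LNCaPabl-Enza it differed by -1.15 ± 0.65 with 12 arrays and -0.15 ± 0.25 with 11, since Enza_Ctrl replicate 2 read 6.95. LIFR, the receptor for leukaemia inhibitory factor, differed by 0.07 ± 0.26 in LNCaPabl-Abi. It differed by 0.92 ± 0.42 with 12 arrays and 0.43 ± 0.29 with 11 in LNCaPabl-Enza. NDRG1, a gene of differentiation and stress responses, differed by 0.25 ± 0.27 in LNCaPabl-Abi (11 arrays), and in LNCaPabl-Enza by 0.66 ± 0.37 with 12 arrays and 0.32 ± 0.31 with 11.

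Transcription genes were balanced in LNCaPabl-Abi, with 3 of 6 higher in Abi_Dex and differences from -0.27 to 0.34. ELL2, an elongation factor of RNA polymerase II, read 10.50, 10.44 and 10.55 in Abi_Dex against 10.40, 10.09 and 9.98 in Abi_Ctrl. That is a difference of 0.34 ± 0.25 (11 arrays) without overlap. In LNCaPabl-Enza, ELL2 read 9.32, 9.60 and 10.54 in Enza_Dex against 9.88, 8.38 and 9.75 in Enza_Ctrl, a difference of 0.00 ± 0.28 with 11 arrays and 0.48 ± 0.41 with 12. Its partner EAF2 differed by 0.30 ± 0.23 in LNCaPabl-Abi (11 arrays), and in LNCaPabl-Enza by -0.91 ± 0.43 with 12 arrays and -0.34 ± 0.26 with 11. MAF, a basic leucine zipper factor, read 3.61, 3.84 and 3.40 in Abi_Dex against 3.68, 4.09 and 3.90 in Abi_Ctrl, and 4.12, 3.99 and 4.33 in Enza_Dex against 3.54, 4.63 and 3.85 in Enza_Ctrl. MAF was thus lower in Abi_Dex, at -0.27 ± 0.19, and higher in Enza_Dex, at 0.45 ± 0.21 with 11 arrays and 0.14 ± 0.29 with 12. The zinc finger genes ZBTB10 and ZNF189 and the Mediator subunit MED28 differed by -0.10 to 0.17 in LNCaPabl-Abi. In LNCaPabl-Enza the 3 genes differed by 0.38, 0.47 and 0.29 with 12 arrays and by -0.05, 0.13 and 0.01 with 11, so the sign of ZBTB10 turned without the 1 array.

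Among metabolic genes, GNMT, glycine N-methyltransferase, had the smallest p of the 32 genes in LNCaPabl-Abi. It read 5.12, 4.63 and 4.46 in Abi_Dex against 3.71, 3.82 and 4.44 in Abi_Ctrl. The groups were separated by a narrow margin between 4.46 and 4.44, with a difference of 0.75 ± 0.26 (11 arrays; 1.68-fold, adjusted p = 0.579). In LNCaPabl-Enza, GNMT read 4.26, 4.65 and 4.16 in Enza_Dex against 4.89, 4.69 and 4.15 in Enza_Ctrl, a difference of -0.16 ± 0.29 with 11 arrays and -0.22 ± 0.30 with 12. HPGD, the enzyme that inactivates prostaglandins, read 4.18, 4.99 and 4.59 in Enza_Dex against 3.95, 5.25 and 3.90 in Enza_Ctrl. Replicate 2 was the highest array in each of these groups. The difference was 0.67 ± 0.25 with 11 arrays, the largest of the 32 genes in that line (adjusted p = 1.00), and 0.22 ± 0.37 with 12. In LNCaPabl-Abi, HPGD differed by 0.22 ± 0.22. ALDH1A3, a retinaldehyde dehydrogenase, was lower in both lines, at -0.26 ± 0.22 in LNCaPabl-Abi (11 arrays), and in LNCaPabl-Enza at -0.41 ± 0.29 with 12 arrays and -0.17 ± 0.25 with 11. In the alternative fits listed below, the Abi difference of ALDH1A3 rose as high as 0.01.

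The remaining genes gave few separated groups. NCAPD3, a condensin II subunit, read 10.80, 10.67 and 11.01 in Abi_Dex against 11.13, 11.10 and 11.06 in Abi_Ctrl, every array lower with a difference of -0.27 ± 0.19. In LNCaPabl-Enza its difference was 0.42 ± 0.23 with 12 arrays and 0.27 ± 0.21 with 11. CENPN, a centromere protein, differed by 0.24 ± 0.19 and MPHOSPH9, a centriole protein, by -0.36 ± 0.23 in LNCaPabl-Abi (11 arrays). In LNCaPabl-Enza, CENPN differed by 0.06 ± 0.22 with 12 arrays and 0.17 ± 0.21 with 11, and MPHOSPH9 by 0.81 ± 0.62 with 12 arrays and -0.12 ± 0.25 with 11. MSMB, the secreted beta-microseminoprotein, differed by 0.27 ± 0.25 in LNCaPabl-Abi (11 arrays), and in LNCaPabl-Enza by -0.01 ± 0.28 with 12 arrays and 0.02 ± 0.28 with 11. The secreted metalloprotease ADAMTS1 differed by 0.18 ± 0.48 in LNCaPabl-Abi (11 arrays), and in LNCaPabl-Enza by 1.14 ± 0.80 with 12 arrays and 0.19 ± 0.54 with 11.

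C1orf116, known as the specifically androgen-regulated gene, was bright. It read 11.22, 11.11 and 11.03 in Enza_Dex against 10.86, 8.40 and 10.62 in Enza_Ctrl, and 10.40, 11.04 and 10.60 in Abi_Dex against 10.36, 10.04 and 10.45 in Abi_Ctrl. The differences with 11 arrays were alike in size, 0.38 ± 0.22 in LNCaPabl-Enza and 0.40 ± 0.20 in LNCaPabl-Abi, and the Abi groups overlapped at 10.40 and 10.45. With 12 arrays the Enza difference was 1.16 ± 0.52 (adjusted p = 0.523). ANKRD37, an ankyrin repeat protein of the hypoxia response, read 5.92, 6.38 and 5.54 in Enza_Dex against 6.42, 7.42 and 6.54 in Enza_Ctrl, lower in every array with a difference of -0.53 ± 0.24 with 11 arrays or -0.84 ± 0.31 with 12. TPD52, a vesicle trafficking protein, TMEM87A, a Golgi membrane protein, and HERC3, a ubiquitin ligase, differed by -0.05, 0.28 and 0.01 in LNCaPabl-Abi. In LNCaPabl-Enza the same 3 genes differed by 0.15, 0.78 and 1.30 with 12 arrays and by 0.14, 0.00 and 0.19 with 11.

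**Figure D3:**
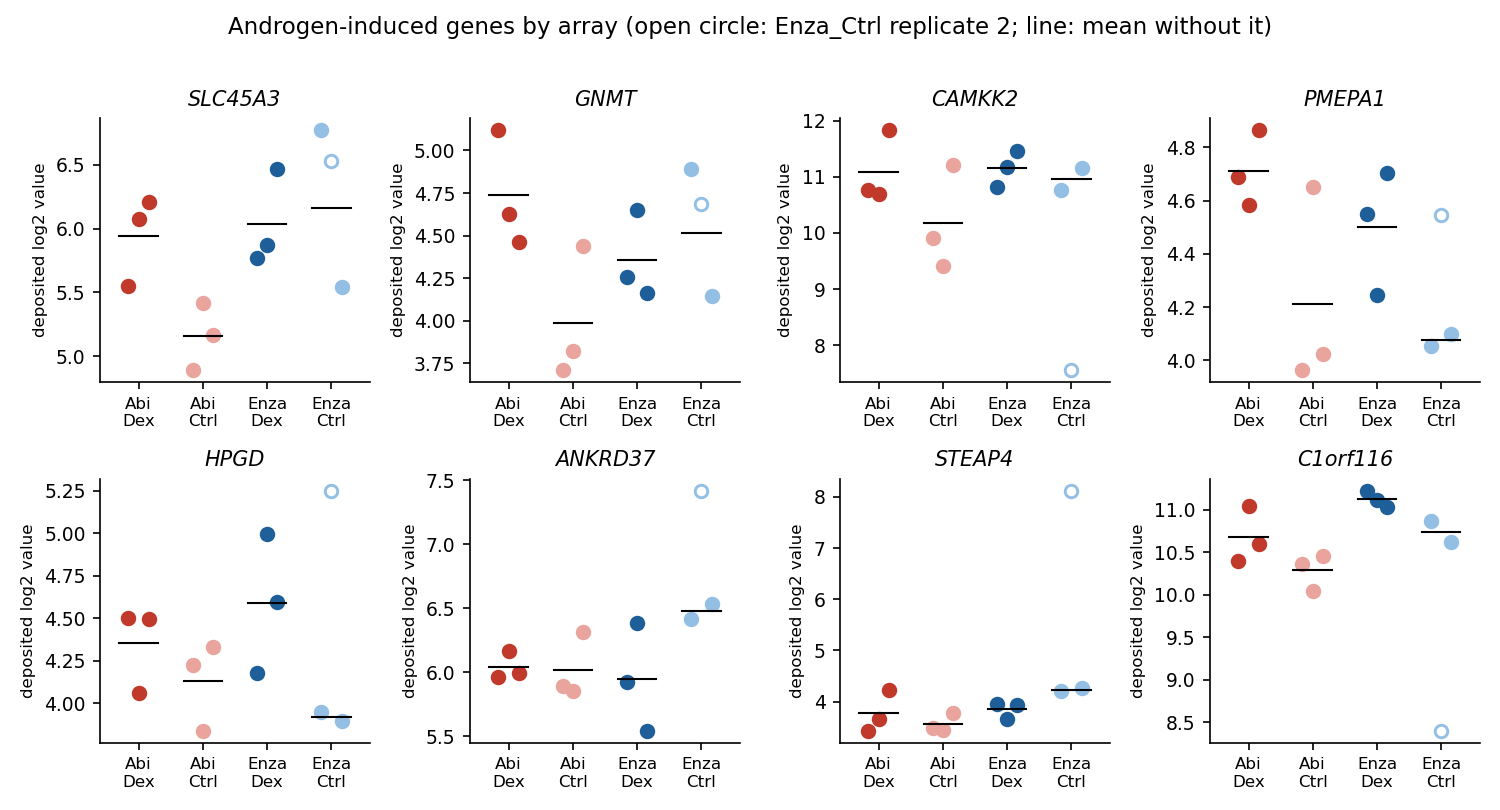
Deposited log2 value on each array for SLC45A3, GNMT, CAMKK2, PMEPA1, HPGD, ANKRD37, STEAP4 and C1orf116, dexamethasone left of DMSO within each line. Filled points are single arrays, the open circle is Enza_Ctrl replicate 2, and horizontal lines are group means without it. STEAP4 reads 8.12 on that array and at most 4.27 on the other 11 arrays.

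Promoter windows were read for the measured genes, since androgens and glucocorticoids act through receptors that share a DNA element. RefSeq (GRCh38.p14) gave 38 windows for 23 of the 32 genes, each the 250 bases before an annotated start. The element AGAACA, on either strand, occurred in 3 of the 38 windows (7.89%) and in 12.4% of all 35116 windows. The longer pattern GNACA followed 3 bases later by TGTNC, searched on both strands, occurred in 0 of 38 windows and in 0.327% of all. It overlaps the shorter element where that lies at one of its ends. The 3 windows with AGAACA are shown because they hold the element in question, and the window of STEAP1, without the element, because STEAP1 passed a test between the lines. Each is written along its gene's strand, and capitals mark the element, which reads TGTTCT where it lies on the opposite strand. A match is letters in a window and does not show a bound receptor. The windows are chr20:57710578-57710827 (minus strand) for PMEPA1, chr5:38557468-38557717 (minus strand) for LIFR, chr2:233979899-233980148 (plus strand) for TRPM8 and chr7:90154219-90154468 (plus strand) for STEAP1.
PMEPA1: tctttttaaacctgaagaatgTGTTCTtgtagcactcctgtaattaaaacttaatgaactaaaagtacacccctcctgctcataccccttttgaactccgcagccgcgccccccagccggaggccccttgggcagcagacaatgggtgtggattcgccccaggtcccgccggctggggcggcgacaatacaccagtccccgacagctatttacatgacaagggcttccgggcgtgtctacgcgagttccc
LIFR: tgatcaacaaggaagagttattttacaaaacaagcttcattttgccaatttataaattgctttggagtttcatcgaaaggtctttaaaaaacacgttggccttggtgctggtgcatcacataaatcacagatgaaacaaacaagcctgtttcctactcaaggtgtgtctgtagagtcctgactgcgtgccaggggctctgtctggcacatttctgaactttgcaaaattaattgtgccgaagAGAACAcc
TRPM8: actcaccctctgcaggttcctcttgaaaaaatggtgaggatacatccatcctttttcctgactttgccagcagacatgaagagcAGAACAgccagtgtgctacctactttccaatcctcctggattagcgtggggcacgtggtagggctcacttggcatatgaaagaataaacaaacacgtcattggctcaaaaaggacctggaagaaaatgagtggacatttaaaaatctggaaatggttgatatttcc
STEAP1: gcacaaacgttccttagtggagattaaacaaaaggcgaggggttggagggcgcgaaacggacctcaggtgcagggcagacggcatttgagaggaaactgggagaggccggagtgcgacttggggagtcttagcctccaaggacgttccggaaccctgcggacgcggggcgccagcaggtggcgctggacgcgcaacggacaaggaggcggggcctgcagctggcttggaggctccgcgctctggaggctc

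Other androgen targets on the same arrays did pass the test, in LNCaPabl-Abi. This list and the gene lists below were chosen with earlier results of these data known. Their counts are therefore a description and no independent support. Of 30 listed androgen-induced genes that are no members, 24 were measured and 17 were higher in Abi_Dex, against 50.4% of all genes, with a median of 0.53. With 12 arrays 3 of the 24 were called higher (KLK4, PGC and TMPRSS2; 0.0283% of all genes called), and with 11 arrays 6 were (RHOU, ABHD2 and HOMER2 besides; 0.141% of all genes). The membrane serine protease TMPRSS2 read 13.42, 13.23 and 13.60 in Abi_Dex against 11.25, 11.03 and 11.41 in Abi_Ctrl, a difference of 2.19 ± 0.20 with 11 arrays (limma, adjusted p = 6.6e-05). The lipase ABHD2 rose by 1.32 ± 0.20 (adjusted p = 0.0125) and the scaffold protein HOMER2 by 1.13 ± 0.19 (adjusted p = 0.0255) with 11 arrays. In LNCaPabl-Enza none of the 24 was called, with 12 arrays or 11, while 18 and 17 were higher in Enza_Dex, against 54.0% and 51.0% of all genes. TMPRSS2 differed there by 1.08 ± 0.27 with 12 arrays and 0.83 ± 0.22 with 11.

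**Figure D4:**
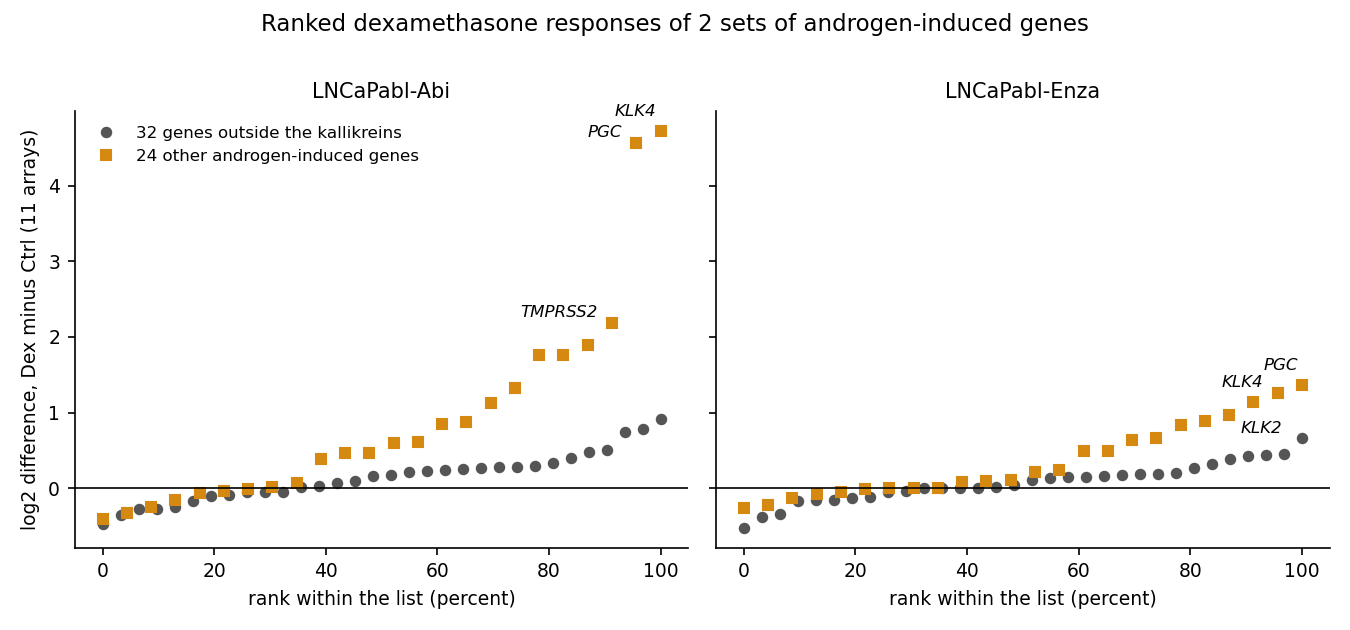
Differences in log2 value between dexamethasone and DMSO arrays (11 arrays) for the 32 genes and for 24 other androgen-induced genes, each list ranked from its lowest to its highest member, LNCaPabl-Abi on the left and LNCaPabl-Enza on the right. In LNCaPabl-Abi the 32 genes end at 0.91 while KLK4 reaches 4.73. Both lists were chosen with earlier results of these data known.

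Among 20 listed classical glucocorticoid-induced genes, 18 were measured. In LNCaPabl-Abi 15 of 18 were higher in Abi_Dex, against 50.4% of all genes, and 1, SGK1, was called. In LNCaPabl-Enza none was called, and 14 of 18 (12 arrays) or 15 of 18 (11 arrays) were higher in Enza_Dex, against 54.0% and 51.0% of all genes. SGK1, a kinase gene induced by glucocorticoids in many tissues, read 13.59, 13.29 and 13.83 in Abi_Dex against 6.52, 6.20 and 5.82 in Abi_Ctrl. It read 9.66, 9.99 and 13.20 in Enza_Dex against 6.13, 6.17 and 6.89 in Enza_Ctrl. NR3C1 read 9.44, 9.99 and 10.16 in Abi_Dex against 11.14, 11.30 and 11.49 in Abi_Ctrl, and 6.72, 6.38 and 9.03 in Enza_Dex against 6.51, 7.43 and 10.37 in Enza_Ctrl. Replicate 3 thus had the highest NR3C1 value in each of the 4 groups, and the highest SGK1 value in every group but Abi_Ctrl. Enza_Dex replicate 3 was the highest of its group in 17 of the 32 genes (53.1%), against 36.3% of all genes. Replicate 3 was also the highest in 16 of 32 (50.0%, against 33.8%) in Abi_Dex and in 19 of 32 (59.4%, against 32.9%) in Abi_Ctrl, and in 8 of 32 (25.0%, against 27.9%) in Enza_Ctrl. The part of these arrays in the differences was not tested. Of 12 listed androgen-repressed genes 11 were measured, and 2 of 11 were higher in Abi_Dex, against 50.4% of all genes, with none called. In Enza_Dex 7 of 11 (12 arrays) or 4 of 11 (11 arrays) were higher, against 54.0% and 51.0% of all genes, with none called. Of 20 listed receptor partners and coregulators 14 were measured, and none was called in LNCaPabl-Abi, with 5 of 14 higher, against 50.4% of all genes. In LNCaPabl-Enza none of these was called, with 10 of 14 (12 arrays) or 4 of 14 (11 arrays) higher, against 54.0% and 51.0% of all genes.

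The responses of the lines were compared directly as the Enza response minus the Abi response. With limma 0 of the 32 genes were called with 12 or with 11 arrays, as were 0.0% of all genes. At an unadjusted p under 0.05 there was 1 gene with 12 arrays (GNMT; 1.5% of all genes) and 2 with 11 (GNMT and MAF; 3.2% of all genes). GNMT gave -0.91 ± 0.39 with 11 arrays and -0.96 ± 0.42 with 12, being higher with dexamethasone in LNCaPabl-Abi and not in LNCaPabl-Enza. MAF gave 0.72 ± 0.29 with 11 arrays and 0.41 ± 0.40 with 12, in the opposite direction. Their adjusted p was 1.00 for each with 11 arrays, so a difference between the lines in either gene did not pass the test. The responses of the lines share no array, and with 11 arrays they had the same sign in 17 of 32 genes (53.1%), 14 higher and 3 lower in both, against 54.9% of all genes. With 12 arrays it was 16 of 32, against 50.2% of all genes.

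The levels of the lines were also compared under the same treatment. Between the dexamethasone groups STEAP1 alone passed the test, with 11 arrays and not with 12, and between the DMSO groups none did. STEAP1 read 14.45, 14.24 and 14.78 in Enza_Dex against 15.26, 15.03 and 15.41 in Abi_Dex, lower in every array with a difference of -0.74 ± 0.18 with 11 arrays (limma, adjusted p = 0.0498). With 12 arrays the same difference had an SE of 0.22 and an adjusted p of 0.442, so the call depends on leaving Enza_Ctrl replicate 2 out of the shared spread. The 1 call among 32 genes stands beside 2.28% of all genes called with 11 arrays, which is near the same share, and 0 calls with 12 arrays beside 0.277%. In the DMSO groups STEAP1 read 14.41, 14.00 and 14.26 in Enza_Ctrl against 14.88, 14.98 and 15.00 in Abi_Ctrl. It was again lower in every array, with a difference of -0.62 ± 0.21 with 11 arrays (adjusted p = 0.215) or -0.73 ± 0.22 with 12 (adjusted p = 0.319). Between the DMSO groups 0 of 32 genes were called with 12 arrays, beside 0.266% of all genes, and 0 of 32 with 11, beside 1.29%. At an unadjusted p under 0.05 there were 12 and 10 genes, beside 11.3% and 11.1% of all genes, and between the dexamethasone groups 2 and 11, beside 4.14% and 11.5%. The comparison of the dexamethasone groups was added after the data had been seen.

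Between the DMSO groups 5 of 8 surface genes were lower in LNCaPabl-Enza, as were 20 of all 32 genes. The count of 20 held with 12 and with 11 arrays, though not for the same genes. STEAP2 read 16.48, 16.21 and 16.43 in Enza_Dex against 16.79, 16.67 and 16.81 in Abi_Dex, and 16.25, 16.12 and 16.27 in Enza_Ctrl against 16.52, 16.72 and 16.73 in Abi_Ctrl. It did not overlap between the lines under either treatment. LIFR read 10.13, 10.41 and 10.72 in Enza_Dex against 10.91, 10.78 and 11.22 in Abi_Dex, and 9.61, 8.51 and 10.37 in Enza_Ctrl against 10.47, 10.88 and 11.36 in Abi_Ctrl. Its difference was -0.55 ± 0.26 between the dexamethasone groups and -0.92 ± 0.29 between the DMSO groups (11 arrays, adjusted p = 0.431 and 0.178). Between the DMSO groups LIFR differed by -1.41 ± 0.42 with 12 arrays. ABCC4 and TPD52 also had every array lower in LNCaPabl-Enza under both treatments, with differences of -0.38 and -0.35 with dexamethasone. With DMSO the differences were -1.08 and -0.55 with 12 arrays and -0.43 and -0.54 with 11.

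ADAMTS1 had the widest difference between the lines. It read 10.49, 10.46 and 10.34 in Enza_Dex against 12.67, 12.36 and 10.56 in Abi_Dex, and 10.39, 7.38 and 10.09 in Enza_Ctrl against 12.62, 11.81 and 10.61 in Abi_Ctrl. Replicate 3 of each Abi group read near the Enza arrays, so the size rests on replicates 1 and 2 of LNCaPabl-Abi. The difference was -1.43 ± 0.48 between the dexamethasone groups and -1.44 ± 0.54 between the DMSO groups (11 arrays, adjusted p = 0.194 and 0.292). With 12 arrays the DMSO groups differed by -2.39 ± 0.80. In all, 9 of 32 genes had every array lower in Enza_Dex than in Abi_Dex, where 10.7% of all genes did, and 1 gene (MAF) had every array higher, where 9.43% did. Between the DMSO groups 9 of 32 had every array lower, where 8.22% of all genes did with 12 arrays and 12.5% with 11. Every array was higher in 3 genes with 12 arrays (5.95% of all genes) and in 4 with 11 (11.5%).

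The upper side held fewer genes, 12 of 32 between the DMSO groups (48.0% of all genes with 12 arrays, 49.6% with 11) and 11 of 32 between the dexamethasone groups (48.6%). Between the DMSO groups the sign turned in 8 of 32 genes without Enza_Ctrl replicate 2, so the 12 genes differ between the 2 sets of arrays. SLC45A3 was higher in every Enza_Ctrl array than in every Abi_Ctrl array, by 1.00 ± 0.33 with 11 arrays (adjusted p = 0.206) or 1.12 ± 0.35 with 12, while with dexamethasone the lines differed by 0.09 ± 0.30. STEAP4 was higher by 1.96 ± 0.81 with 12 arrays and 0.67 ± 0.23 with 11 between the DMSO groups, and by 0.07 ± 0.21 between the dexamethasone groups. FOLH1 read 16.08, 15.91 and 15.68 in Enza_Dex against 14.79, 14.99 and 15.70 in Abi_Dex, a difference of 0.73 ± 0.26 (11 arrays, adjusted p = 0.230) with replicate 3 of the groups overlapping. The 2 line comparisons share no array. With 11 arrays they had the same sign in 23 of 32 genes (71.9%), 16 lower and 7 higher in LNCaPabl-Enza, against 62.4% of all genes. With 12 arrays it was 21 of 32 (65.6%), against 55.2% of all genes.

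**Figure D5:**
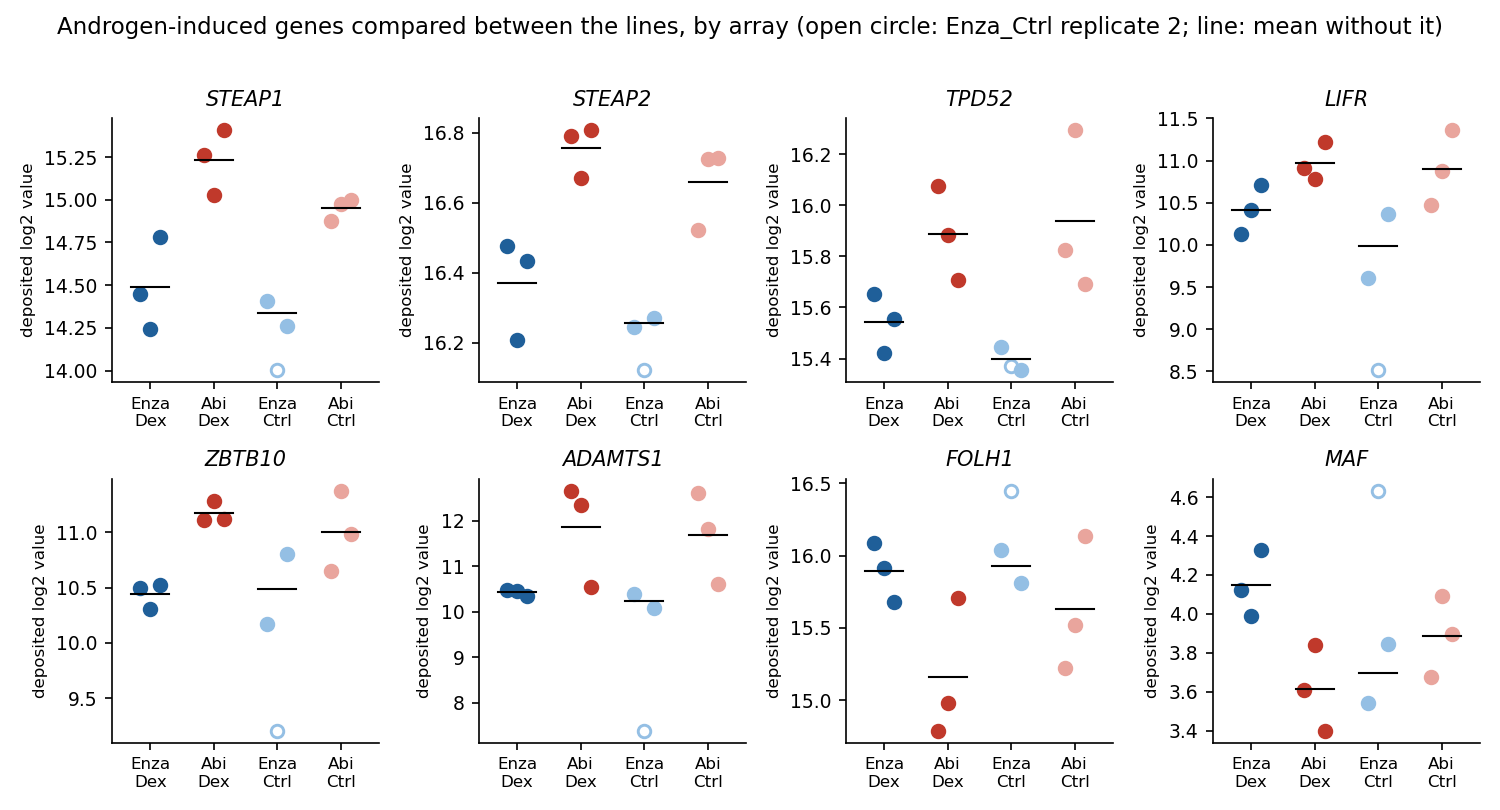
Deposited log2 value on each array for genes compared between the lines, LNCaPabl-Enza left of LNCaPabl-Abi within each treatment. Filled points are single arrays, the open circle is Enza_Ctrl replicate 2, and horizontal lines are group means without it. All STEAP1 arrays of LNCaPabl-Enza, at most 14.78, lie below all those of LNCaPabl-Abi, at least 14.88.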

How the data were processed

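The authors deposited log2 values, 1 for each row on each array. RMA, Affymetrix Expression Console and limma are named without versions in the submitters' processing notes. RMA subtracts background, gives all arrays the same distribution and combines a row's probes. The deposited log2 values span a range wide for RMA alone, so folds are on the deposited scale and may be larger than changes in RNA. The genome build is not given in the sources used here.

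There were 24351 rows. A single gene symbol stood in the platform annotation for 17709 rows, none had several, and 6642 had none here. For 20 genes with several rows the brightest was kept, leaving 17687 genes. Group and replicate number came from the array titles. The labels call the arrays triplicates without naming separate cultures, so that p-values reflect array-to-array spread, part of which may be technical. The number of arrays limits the precision.

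All genes were fitted with limma's lmFit and eBayes (limma 3.58.1, R 4.3.3, 4 group means, 12 arrays, no filter on dim genes, no replicate block), with p-values adjusted by Benjamini-Hochberg across all genes within each comparison. The 5 comparisons were the response to dexamethasone in either line, one response minus the other (Enza minus Abi), and LNCaPabl-Enza against LNCaPabl-Abi under DMSO and under dexamethasone, of which the last was added after the data had been seen. The line comparisons under DMSO and under dexamethasone each share their arrays with the responses, so neither is independent of the responses. Every member is named. Array values are given for members called in a planned comparison, or whose dexamethasone and DMSO arrays do not overlap within a line at an absolute log2 difference of at least 0.5. Members shown array by array outside this rule, among them STEAP1, CAMKK2 and PMEPA1, were picked with their values in view. The members and the other gene lists were chosen with earlier results of these data known. The fit was also run on simulated data, with a spread estimated over the arrays other than Enza_Ctrl replicate 2. That run therefore does not show how the fit behaves with that array in it. Alternatives left out each array, added a replicate block, weighted the arrays, dropped dim genes, normalized anew, averaged the rows of a symbol, changed the variance prior or used 1 line alone. Promoter sequences are RefSeq's. Figures were drawn with matplotlib 3.10.9 in Python 3.11.15.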

Additional observations from a re-analysis of the deposited data

How the results depend on the processing

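Enza_Ctrl replicate 2 was the array that mattered most: with it the median residual SD over genes was 0.430, without it 0.258, and its array weight was 0.0321. No member was called in either dexamethasone response or in their difference under any alternative run, and the smallest adjusted p were 0.325 (CAMKK2 in LNCaPabl-Abi), 0.214 (ANKRD37 in LNCaPabl-Enza) and 0.444. The sign of the difference was the same in all alternatives for 21 of 32 members in LNCaPabl-Abi and 18 of 32 in LNCaPabl-Enza. Leaving out each array in turn gave 0 to 25 genes called over all genes in LNCaPabl-Abi, 0 to 1 in LNCaPabl-Enza, 11 to 228 between the DMSO groups and 12 to 403 between the dexamethasone groups. Only the last comparison had a member called, 0 to 1. With single arrays left out, members higher with dexamethasone numbered 17 to 23 in LNCaPabl-Abi and 21 to 24 in LNCaPabl-Enza, where the block with 11 arrays gave 19 and array weights 20. Whether replicate numbers pair the arrays is not stated in the labels and was not settled. Same-numbered dexamethasone and DMSO arrays correlated, as deviations from their group means, at 0.137, 0.083 and 0.303 in LNCaPabl-Abi. Differently numbered arrays of that line correlated at -0.196 to 0.098. In LNCaPabl-Enza same-numbered arrays gave 0.014, 0.004 and 0.082, and differently numbered arrays -0.065 to 0.056. The Enza_Ctrl mean included replicate 2, so that array enters all these Enza deviations, and the Enza values cannot decide on pairing. With a replicate block and 12 arrays, 4 genes were called in LNCaPabl-Abi, 64 between the DMSO groups and 56 between the dexamethasone groups. With the block and 11 arrays these were 39, 303 and 540, with 1 gene called for the difference between the responses. Members called were then 1 of 32 between the DMSO groups (LIFR, -0.96, adjusted p = 0.0302), beside 303 of 17687 genes. Between the dexamethasone groups they were 2 of 32 (STEAP1 and ADAMTS1), beside 540 of 17687 genes. Array weights gave 37, 252 and 767 of 17687 genes, and 4 of 32 members between the dexamethasone groups (STEAP1, ADAMTS1, FOLH1 and ZBTB10). The arrays of LNCaPabl-Abi alone gave 22 genes. With the dimmest genes left out, 24 members remained in the fit and 6 of them were higher in Enza_Ctrl than in Abi_Ctrl, against 12 of 32 before. Of the members dropped, STEAP4, PMEPA1, PTGER4, MAF, HPGD and GNMT had been higher in Enza_Ctrl with 12 arrays, and TRPM8 and CHRNA2 lower. The cause of these shifts was not tested. Dim signal limits the 13 members near the negative controls.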
